A study of Mus musculus with 48 samples.

Results

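Liver RNA of male mice lacking wolframin was compared with that of their wild-type counterparts, both given saline, in 16 of the 48 mice of the series. The members were taken by their labels, which name 8 wild-type (WT, Wfs1 +/+) and 8 homozygous mutant (KO, Wfs1 -/-) mice treated with saline, with 1 array per mouse. All 16 mice were males aged 4 to 6 weeks at the first injection and 16 to 18 weeks at death, were injected i.p. with saline at 10 mL/kg for 12 weeks, and took a glucose tolerance test (2 g/kg) 24 h before they were killed. The other 32 mice were heterozygous (HZ, Wfs1 +/-) mice given saline and mice of the 3 genotypes given valproic acid (VPA, 300 mg/kg), and they enter below as reference groups and in the estimate of the spread.

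Wolframin, the product of Wfs1, is a membrane protein of the endoplasmic reticulum that takes part in its calcium balance, and loss of the human gene causes Wolfram syndrome with diabetes. The mutation of these mice removes exons 7 and 8 of Wfs1 in every tissue, so a difference in the liver need not arise in the liver itself, and KO mice are smaller than WT mice by the study's own description. In mouse liver many enzymes, carriers and secreted proteins are made at a higher level in one sex, a pattern set largely by the rhythm of growth hormone release and by the transcription factor STAT5b that it activates. In male mice the pulses of growth hormone keep male-biased genes high and female-biased genes low.

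Of 35556 probesets, 281 (0.79%) passed an adjusted p under 0.05 in KO against WT mice given saline, 104 higher (0.292%) and 177 lower (0.498%) in KO (limma, Benjamini-Hochberg adjustment over all probesets). The largest rises among probesets with a gene name were those of drug- and steroid-metabolizing enzymes and organic anion carriers that are female-biased in mouse liver, such as Sult3a1, Cyp2b13 and Slc22a26, and the largest falls were those of male-biased genes such as Elovl3, Cyp4a12a and Hsd3b5. The median size of the difference among the 281 was 0.54 on the log2 scale, 21 rose and 38 fell by more than 1, and the median difference over all probesets was 0.01. An unadjusted p under 0.05 was reached by 3290 probesets. The groups did not overlap at 29 probesets of the whole array (0.0816%), 9 higher (0.0253%) and 20 lower (0.0562%) in KO, and 19 of the 29 were among the 281. By genes, 211 of the 281 carried 1 gene symbol and stood for 204 genes, 75 higher and 129 lower, while 24 carried several symbols and 46 none.

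The spread of the called probesets was wider in KO than in WT mice. The SD was larger in KO at 221 of the 281 (78.6%, against 50.6% of all probesets), with a median of 0.311 in KO and 0.216 in WT mice. The test used 1 spread per probeset over all 48 arrays, and with only the 16 arrays fitted the count fell from 281 to 19, all of them among the 281. These 19 were Abhd1, Lepr, Rgs16, Serpina6 and Slco1a4, which rose, and Elovl3, Cyp7b1, C6, Nat8, Nat8f5, Susd4, Alas2, Fitm1, Slc15a5, Cyp2d12, Tlcd2, Dzip3, Ociad2 and 9130409I23Rik, which fell. Every other call named below was lost in that fit. Without KO replicate 4 the count was 102, without KO replicate 5 it was 154, without WT replicate 2 it was 182 and without KO replicate 7 it was 476.

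**Figure D1:**
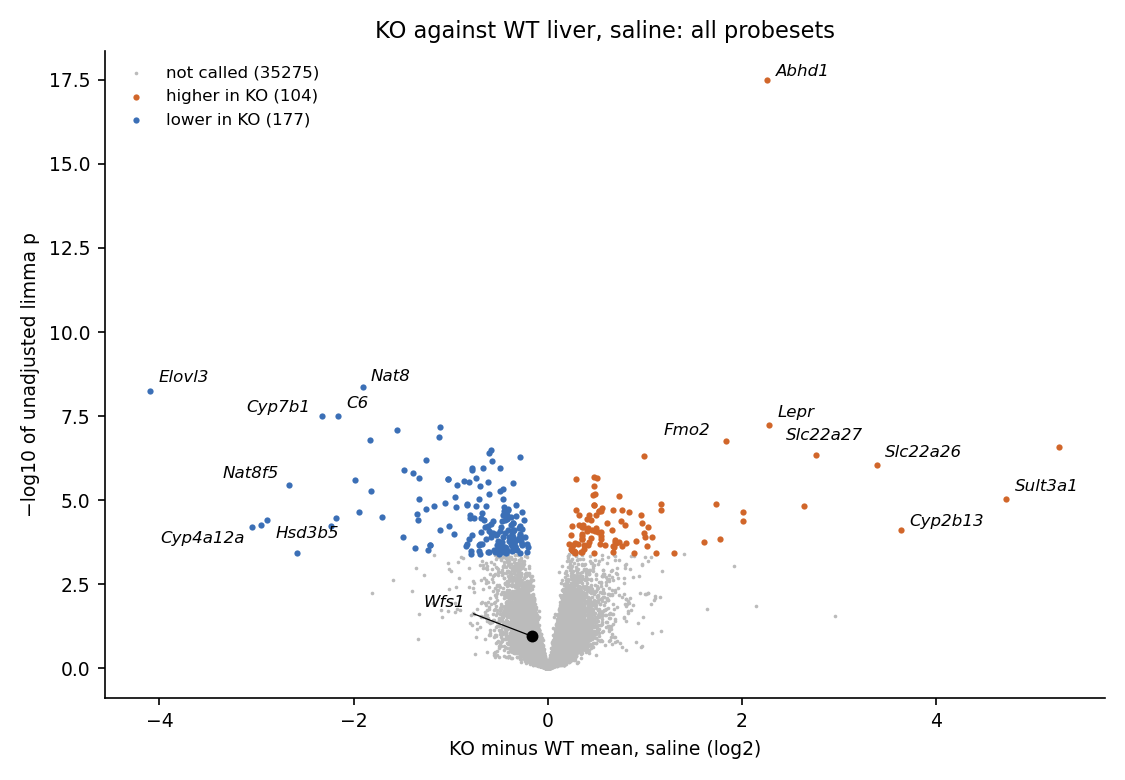
Difference between KO and WT means (log2, horizontal) against the unadjusted limma p (as minus log10, vertical) for all 35556 probesets, with 1 point per probeset. The 104 probesets called higher (orange) and the 177 called lower (blue) spread to differences beyond 4 on either side, Abhd1 stands at the top, and Wfs1 (black) lies among the probesets that were not called.

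The labels and the tissue were also checked. Wfs1 was measured at 8.24 to 8.60 (median 8.44) in WT and at 8.13 to 8.42 (median 8.28) in KO mice, so the groups overlapped. The difference was -0.16 (SE 0.10, adjusted p = 0.687 from limma), and a two-sided exact permutation test over the 12870 splits of the 16 mice gave p = 0.0154. By the study's account the array has probes in each exon of Wfs1, of which only exons 7 and 8 are removed. The level of the whole probeset is thus no check of the genotype. The study reports lower signal of those exons in KO mice, without showing the data, and qRT-PCR levels of Wfs1 that depended on genotype. The Y-linked genes Eif2s3y, at 9.02 to 10.27, and Uty, at 8.30 to 9.34, were high in all 16 mice and Xist stayed at 4.94 to 5.57, so every liver carried the male pattern of these genes. The 7 measured hepatocyte markers averaged 13.77 to 13.87 in WT and 13.82 to 13.93 in KO mice. Array medians lay between 6.90 and 7.03 and pairwise correlations between 0.971 and 0.992.

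The largest rise of a probeset with 1 gene symbol was that of Sult3a1, a sulfotransferase typical of female mouse liver. The 8 WT mice lay between 3.16 and 3.60 on the log2 scale (median 3.36). KO replicates 1 to 8 were at 3.47, 10.70, 9.23, 12.17, 11.87, 7.33, 3.80 and 6.16. KO replicate 1 lay within the WT range, replicate 7 just above it and the other 6 far above, and the difference of means was 4.72 (SE 0.95, adjusted p = 0.00613 from limma). The WT values lie near the lower end of the array's scale, so the size of this difference and its rank among the rises depend on that end. Cyp2b13, a female-biased cytochrome P450 of the phenobarbital-inducible subfamily, ran from 4.55 to 5.07 in WT (median 4.79) and from 4.57 to 11.67 in KO mice (median 9.19). Replicates 1 and 4 were within the WT range and the other 6 KO mice above it, with a difference of 3.64 (SE 0.84, adjusted p = 0.0189). The call of Cyp2b13 was lost without KO replicate 2 or without KO replicate 5. Cyp2b13 too has a WT mean under 5, near the lower end of the scale, and no fold change is given for either gene.

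A group of neighbouring organic anion carriers of the Slc22 family rose with them. Slc22a26 was at 5.72 to 8.54 in WT (median 6.81) and at 6.58 to 11.90 in KO mice (median 11.00), a difference of 3.39 (SE 0.60, adjusted p = 0.00162). Slc22a27 rose by 2.76 (SE 0.47, adjusted p = 0.00104) and Slc22a29 by 0.59 (SE 0.15, adjusted p = 0.0347). In contrast Slc22a7, the liver's carrier of organic anions such as orotate, fell by 0.79 with all 8 KO mice below all WT mice (SE 0.20, adjusted p = 0.0435, and 0.0520 with the replicate number as a block). The other 18 measured members of the family did not pass. These close relatives share long stretches of sequence, and how far their probes tell them apart was not tested. Cyp2a22, a member of the coumarin hydroxylase subfamily, rose by 2.64 (SE 0.54, adjusted p = 0.00819), with KO mice from 6.00 to 11.85 and WT mice from 5.97 to 8.10.

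Other genes among the 15 largest rises had roles outside drug metabolism. Lepr, the leptin receptor, was at 6.14 to 7.71 in WT mice (median 6.64). KO replicates 1 to 8 were at 8.35, 9.34, 9.20, 10.05, 9.42, 8.84, 7.13 and 9.33, so that only replicate 7 lay within the WT range, and the difference was 2.28 (SE 0.35, adjusted p = 0.000329). Abhd1, a serine hydrolase gene of chromosome 5, was at 8.12 to 9.12 in WT and at 10.54 to 11.23 in KO mice, without overlap and with a small spread (difference 2.26, SE 0.16, adjusted p = 1.16e-13). Pnpla3, a lipase-like protein of lipid droplets, ran from 7.27 to 8.87 in WT and from 7.70 to 11.64 in KO mice, and rose by 1.77 (SE 0.43, adjusted p = 0.0274). Rgs16, a brake on G protein signalling, rose by 1.61 with 7 of 8 KO mice above all WT mice (SE 0.40, adjusted p = 0.0318). Hamp2, a gene beside the one for the iron hormone hepcidin, rose by 1.16 (SE 0.24, adjusted p = 0.00924).

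Among enzymes of steroids and lipids, Cyp17a1, the hydroxylase and lyase that leads to androgens, rose by 2.02 (SE 0.44, adjusted p = 0.0133), with WT mice from 7.78 to 10.79 and KO mice from 9.98 to 12.59. Hao2, a peroxisomal oxidase of hydroxy acids, rose by 2.01 from a WT range of 4.54 to 5.31 (SE 0.42, adjusted p = 0.00939). Fmo2, a flavin monooxygenase, rose by 1.84 with 7 of 8 KO mice above all WT mice (SE 0.30, adjusted p = 0.000565). Acot3, a peroxisomal thioesterase, rose by 1.73 (SE 0.36, adjusted p = 0.00800), and Cyp4a14, a fatty acid hydroxylase, by 1.30 (SE 0.34, adjusted p = 0.0472). The call of Cyp4a14 was the least secure of the 15, since it was lost without any of 11 of the 16 mice, that of Rgs16 without any of 9, that of Pnpla3 without any of 6 and that of Cyp17a1 without KO replicate 4. Ppard, a nuclear receptor for fatty acids, did not pass in saline mice (0.11, SE 0.15, adjusted p = 0.928).

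**Figure D2:**
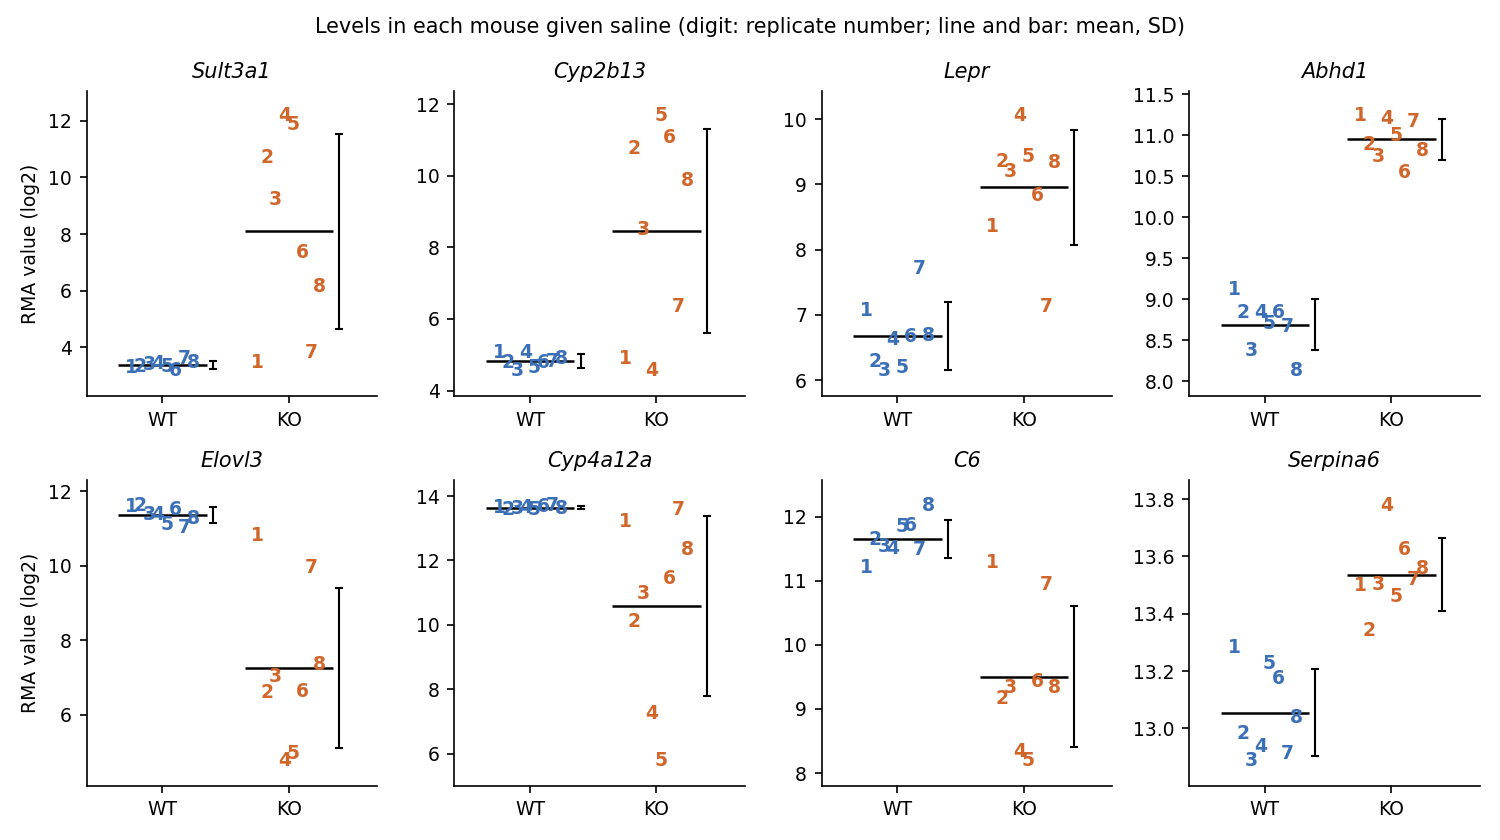
RMA values (log2) of 8 genes in each WT (blue) and KO (orange) mouse given saline, each digit being the replicate number of a mouse, the line the mean and the bar the SD (n = 8). KO replicates 1 and 7 lie closest to the WT mice in Sult3a1, Elovl3, Cyp4a12a and C6, while all 8 KO mice lie apart from the WT mice in Abhd1 and Serpina6.

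The sequence just upstream of the genes that rose most was read for the palindrome TTCNNNGAA, the core letters that STAT5 binds, which reads the same on both strands. A RefSeq window of the 250 bases before a start (GRCm38.p6) was at hand for 22 of the 30 genes with the largest rises and falls, and 3 of the 12 rises and none of the 10 falls held it. Among all 15563 genes with a window 7.73% held it, against 12.7% of 55 genes called higher and 7.92% of 101 called lower. The E-box CACGTG, which clock factors bind, stood in 18.2% of those called higher, 6.93% of those called lower and 8.12% of all genes, but in 0 of the 12 largest rises and 0 of the 10 largest falls with a window. The letters ATCGAT, bound by Onecut and Cux factors, stood in 1.82%, 0.99% and 0.81% of these sets and again in none of the 22 windows. A match is only a match of letters. The 3 windows are shown, each from 5' to 3' along its own strand and ending at the base before the listed start, with TTCNNNGAA in capitals, as the upstream sequences of rising genes that contain it. They are chr10:33857472-33857721 (+) for Sult3a1, whose listed start lies inside the RefSeq span of the gene, chr19:7802668-7802917 (-) for Slc22a26 and chr7:30924182-30924431 (-) for Hamp2.
Sult3a1: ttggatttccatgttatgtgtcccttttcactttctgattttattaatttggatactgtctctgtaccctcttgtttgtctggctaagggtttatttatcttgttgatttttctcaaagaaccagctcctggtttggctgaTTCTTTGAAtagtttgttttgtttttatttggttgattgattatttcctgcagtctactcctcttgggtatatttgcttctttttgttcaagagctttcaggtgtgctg
Slc22a26: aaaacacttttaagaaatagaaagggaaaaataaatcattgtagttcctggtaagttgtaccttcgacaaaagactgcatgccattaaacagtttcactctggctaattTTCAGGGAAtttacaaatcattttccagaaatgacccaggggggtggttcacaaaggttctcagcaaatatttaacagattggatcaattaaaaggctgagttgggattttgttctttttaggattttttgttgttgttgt
Hamp2: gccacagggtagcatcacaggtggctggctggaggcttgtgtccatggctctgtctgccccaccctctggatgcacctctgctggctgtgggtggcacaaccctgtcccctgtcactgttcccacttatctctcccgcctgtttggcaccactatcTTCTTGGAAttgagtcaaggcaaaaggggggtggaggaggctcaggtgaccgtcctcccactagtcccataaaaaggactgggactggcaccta
The first base of the match stood at position -109 in Sult3a1, -141 in Slc22a26 and -94 in Hamp2, counted back from the start.

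The largest fall was that of Elovl3, an elongase of very long-chain fatty acids that is male-biased in liver. WT mice lay between 11.03 and 11.63 (median 11.38). KO replicates 1 to 8 were at 10.81, 6.60, 7.03, 4.78, 4.97, 6.61, 9.97 and 7.36, all below every WT mouse, with a difference of -4.10 (SE 0.57, adjusted p = 6.53e-05). Cyp4a12a, the androgen-dependent hydroxylase of arachidonic acid, was within 13.58 to 13.72 in WT and ran from 5.80 to 13.57 in KO mice (-3.05, SE 0.69, adjusted p = 0.0165). Its near-identical neighbour Cyp4a12b fell by 2.95 (SE 0.66, adjusted p = 0.0159), and the probes of this pair may share signal. Hsd3b5, a male-biased enzyme of steroid reduction, ran from 11.42 to 12.56 in WT and from 5.90 to 12.30 in KO mice (-2.89, SE 0.63, adjusted p = 0.0127). The calls of Cyp4a12a, Cyp4a12b and Hsd3b5 were each lost without KO replicate 4 and without KO replicate 5.

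Genes of the Nat8 cluster, which encode acetyltransferases of cysteine conjugates and of proteins in the endoplasmic reticulum, fell. Nat8 was at 9.45 to 10.17 in WT and at 7.17 to 9.16 in KO mice without overlap (-1.91, SE 0.26, adjusted p = 6.53e-05), and Nat8f5 fell by 2.67 (SE 0.50, adjusted p = 0.00308). Cyp7b1, a hydroxylase of the alternative route of bile acid synthesis, fell by 2.33 with 7 of 8 KO mice below all WT mice (SE 0.35, adjusted p = 0.000227). Susd4, an inhibitor of complement activation, fell by 1.83 with no overlap (SE 0.30, adjusted p = 0.000565). Mup21, a major urinary protein that carries pheromones, fell by 1.82 (SE 0.35, adjusted p = 0.00419). Gm21286, a predicted gene, fell by 2.58 (SE 0.67, adjusted p = 0.0484), a call that was lost without any of 10 of the 16 mice.

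The remaining falls among the 15 largest were of mixed function. Alas2, the erythroid form of the first enzyme of heme synthesis, was at 10.42 to 11.02 in WT and at 8.15 to 10.17 in KO mice without overlap (-1.55, SE 0.24, adjusted p = 0.000374). The other 2 measured erythroid markers, Slc4a1 and Epb42, differed by -0.09 and -0.01. Fitm1, which helps to form lipid droplets, also fell with no overlap (-1.48, SE 0.27, adjusted p = 0.00186). Neb, the gene of the muscle filament protein nebulin, fell by 1.39 (SE 0.25, adjusted p = 0.00211), while none of 7 skeletal muscle markers passed and their median difference was 0.05. Slc15a5, a member of the peptide carrier family, fell by 1.35 (SE 0.29, adjusted p = 0.0106).

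Sex-biased liver genes were also counted as lists. These lists were drawn up with earlier results known, and those genes that are in the study's own gene table had been chosen by the study on these mice, so their direction is no independent evidence. Counted with 1 probeset per gene, 198 of 19938 genes (0.993%) were called, 71 higher (0.356%) and 127 lower (0.637%). These are the shares over all genes to set beside the count of every list below. In the table, all 8 measured female-biased genes were called higher (median 2.01) and all 12 male-biased genes lower (median -2.12). Outside it, 6 of 16 male-biased genes were called lower and none higher, 15 of 16 had a negative difference, and the median was -0.81. Outside it, none of 12 female-biased genes was called, 11 had a positive difference, the median was 0.32 and 5 had an unadjusted p under 0.05.

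The male-biased genes called outside the table were the complement gene C6, described below, the cytochrome Cyp2d9 (-0.81, adjusted p = 0.00281), the glutathione transferase Gstp1 (-0.81, adjusted p = 0.0106), the selenium-binding protein Selenbp2 (-0.81, adjusted p = 0.0274), the glucuronosyltransferase Ugt2b1 (-0.43, adjusted p = 0.00976) and the acyltransferase-like gene Keg1 (-0.83, adjusted p = 0.0340). All 8 KO values of Selenbp2 lay within 9.84 to 10.19, whereas WT mice ran from 9.96 to 11.74. Values that did not pass included -1.81 for the anion carrier Slco1a1 (adjusted p = 0.209), -0.87 for the receptor Egfr (adjusted p = 0.0586) and -1.36 for the repressor Bcl6 (adjusted p = 0.0857). Of the female-biased genes outside the table, the peroxisomal carrier Abcd2 differed by 1.06 (adjusted p = 0.301), the nuclear factor Tox by 0.58 (adjusted p = 0.106) and the cofactor Trim24 by 0.52 (adjusted p = 0.0750). In the table, Cux2, a transcription factor of female liver, rose by 0.55 (SE 0.13, adjusted p = 0.0209) and Cyp2u1, a fatty acid hydroxylase, fell by 1.25 (SE 0.22, adjusted p = 0.00128). The value of Cux2 is from another probeset than the one the study listed, so the 2 sizes cannot be compared.

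KO mice differed among themselves along this pattern. The mean of the 12 male-biased genes of the table was 10.69 to 11.14 in WT mice, and in KO replicates 1 to 8 it was 10.30, 8.46, 8.75, 7.04, 6.75, 8.67, 10.38 and 8.86. The mean of the 8 female-biased genes was 5.91 to 6.63 in WT mice, and in the same order 6.72, 9.89, 8.96, 9.75, 10.22, 8.63, 7.04 and 8.25 in KO mice. Replicates 1 and 7 were thus nearest to the WT mice in both lists, and replicates 4 and 5 were the farthest in male-biased genes. For the 16 male-biased genes outside the table, KO replicates 1 and 7 were at 10.71 and 10.54, with replicate 1 inside the WT range of 10.61 to 10.96, and replicates 4 and 5 at 9.39 and 9.47. For the 12 female-biased genes outside the table the order was different. Replicate 6 was the highest there at 8.61, replicate 4 was at 8.27, and replicates 1 and 7, at 7.66 and 7.82, lay inside the WT range of 7.49 to 7.96.

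**Figure D3:**
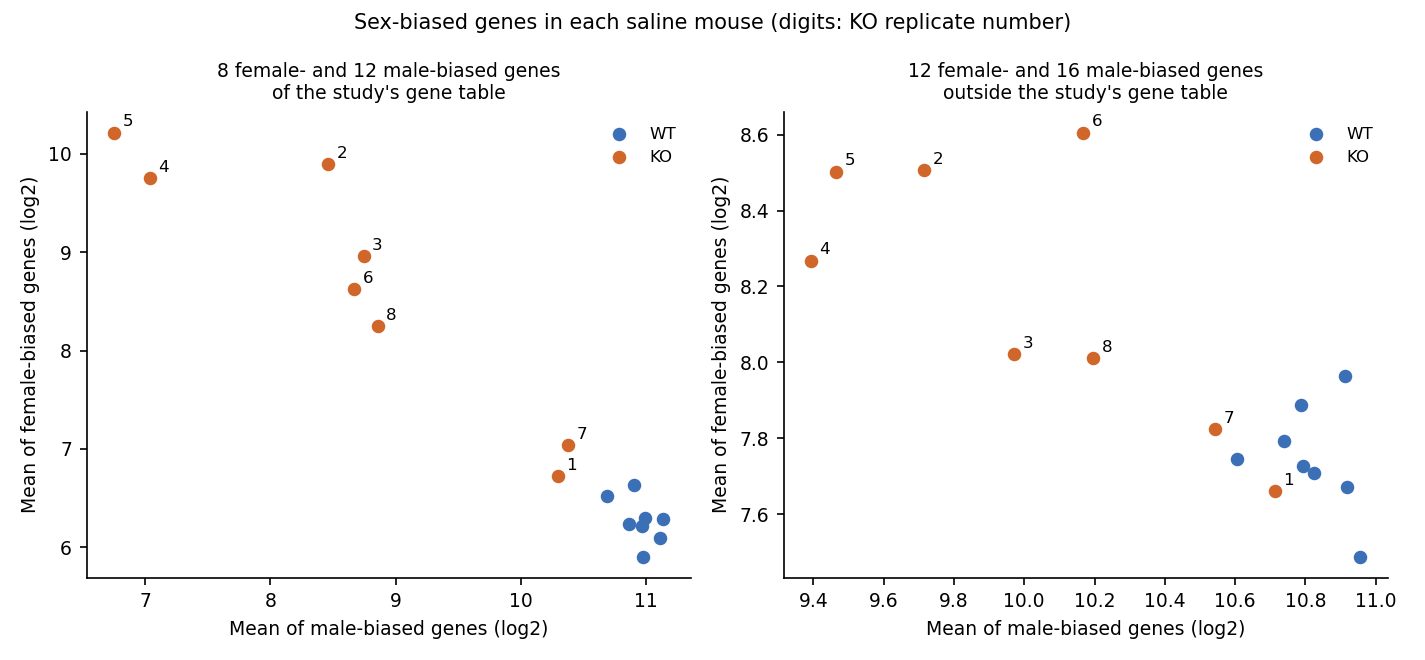
Mean log2 value of male-biased genes (horizontal) and of female-biased genes (vertical) in each mouse given saline, for genes in the study's gene table (left) and outside it (right), with WT mice in blue and KO mice in orange, the latter with their replicate number. In the left panel KO replicates 1 and 7 lie nearest to the WT mice and replicates 4 and 5 the farthest, with male-biased means of 7.04 and 6.75.

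The KO mice were then ranked at each called probeset. Among the 177 probesets called lower, KO replicate 7 had the highest value of the 8 KO mice at 91 and replicate 1 at 50. Replicate 4 had the lowest at 66, replicate 5 at 37 (20.9%, against 5.02% of all probesets) and replicate 8 at 35 (19.8%, against 17.2%). Among the 104 called higher, KO replicate 4 had the highest value at 50. Replicate 2 had it at 26 (25.0%, against 20.2% of all probesets) and replicate 5 at 13 (12.5%, against 14.8%). Replicates 7 and 1 had the lowest at 39 and 34. The shares of replicate 8 for the lowest and of replicates 2 and 5 for the highest were thus near those over all probesets. KO replicate 7 lay within the WT range at 68.9% of those called lower and 61.5% of those called higher, against 88.1% of all probesets, and KO replicate 4 at 5.65% and 7.69%, against 74.7%. Over all probesets replicate 7 was the highest at 7.68% and the lowest at 9.33%, replicate 1 at 9.14% and 8.32%, and replicate 4 at 9.44% and 11.7%. The same mice gave the calls, so these counts are a description. Genotype was assigned by label, and the Wfs1 probeset cannot check it in single mice.

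Growth hormone signalling genes were not called. None of 15 measured genes passed, and their median difference was 0.02, with 8 positive and 7 negative differences. In limma 6 of the 15 had an unadjusted p under 0.05, against 3290 of all 35556 probesets. The growth hormone receptor gene Ghr differed by -0.17 (adjusted p = 0.168), its target Igf1 by -0.11 (adjusted p = 0.620) and Stat5b by -0.05 (adjusted p = 0.959). Feedback inhibitors of the pathway had positive differences that did not pass, 0.94 for Cish (adjusted p = 0.116) and 0.80 for Socs2 (adjusted p = 0.297). Array values are RNA levels, and hormone levels and STAT5 activity were not measured here.

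Of the genes of terminal complement, which form the pore of the membrane attack complex, 4 of 10 were called lower. C6 was at 11.21 to 12.18 in WT mice (median 11.59), and KO replicates 1 to 8 were at 11.28, 9.16, 9.33, 8.33, 8.20, 9.43, 10.94 and 9.33. Only KO replicate 1 lay within the WT range, and the difference was -2.16 (SE 0.32, adjusted p = 0.000227). C9 fell by 1.18 (SE 0.24, adjusted p = 0.00811), C8a by 1.01 (SE 0.23, adjusted p = 0.0164) and C8b by 0.74 (SE 0.15, adjusted p = 0.00800). The third chain of C8, C8g, differed by -0.02, Hc, the gene of C5, by -0.03, and C7 by -0.05, and these did not pass. The call of C8a was lost without KO replicate 4 and without KO replicate 5. In early complement, 2 lectins that start the lectin pathway went opposite ways, Mbl1 lower by -0.38 (adjusted p = 0.0344) and Mbl2 higher by 0.44 (adjusted p = 0.0258), out of 12 genes measured. None of 22 acute phase genes passed, and their median difference was 0.00425.

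In bile acid synthesis and transport, 1 gene rose and 3 fell of 21 measured. Cyp8b1, the sterol hydroxylase that sets the share of cholic acid, was at 11.99 to 12.77 in WT and at 10.15 to 12.00 in KO mice, and fell by 1.11 (SE 0.17, adjusted p = 0.000329). Together with Cyp7b1, described above, Amacr, a racemase of the side chain pathway, fell by 0.37 (SE 0.09, adjusted p = 0.0354). Cyp7a1, the rate-limiting enzyme of the classic route, differed by -0.75 (SE 0.26, adjusted p = 0.209) and did not pass. Slco1a4, an uptake carrier of bile salts and drugs, rose by 0.97 with 7 of 8 KO mice above all WT mice (SE 0.22, adjusted p = 0.0142). In steroid metabolism, Hsd17b2, which inactivates sex steroids by oxidation, fell by 0.60 (adjusted p = 0.0191), beside the rise of Cyp17a1 and the fall of Hsd3b5.

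Fatty acid synthesis genes had positive differences in 17 of 20 cases (median 0.33), but only Pnpla3, counted with them, was called higher and only Elovl3 lower. In limma 14 of the 20 had an unadjusted p under 0.05, against 3290 of all 35556 probesets. The master regulator Srebf1 differed by 0.68 (SE 0.18, adjusted p = 0.0522), Acaca, the first committed enzyme, by 0.57 (adjusted p = 0.114) and Fasn by 0.50 (adjusted p = 0.346). Of 30 genes of fatty acid oxidation and PPAR targets 3 were called higher and none lower, namely Acot3, Cyp4a14 and the coactivator gene Ppargc1a, and the median was 0.04. Both probesets of Ppargc1a rose, by 0.70 (adjusted p = 0.0327) and 0.99 (adjusted p = 0.00105). In cholesterol synthesis 1 of 19 genes, the mevalonate kinase gene Mvk, was called, at -0.51 (adjusted p = 0.0409), and 13 of 19 differences were negative. Lipoprotein genes (16) gave no call.

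Glucose and glycogen genes (17 measured) gave no call, with a median difference of 0.14, and Pck1 and G6pc, enzymes of gluconeogenesis, differed by 0.09 (adjusted p = 0.972) and -0.28 (adjusted p = 0.660). Of 15 insulin signalling genes Lepr alone was called. Khk, the fructokinase gene, which lies near Wfs1, rose by 0.36 (SE 0.08, adjusted p = 0.0169).

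The unfolded protein response, the stress response of the endoplasmic reticulum in which wolframin resides, gave no call among 31 genes represented by their brightest probeset. Of these 25 had a negative difference, with a median of -0.14. An unadjusted p under 0.05 in limma was reached by 11 of the 31, against 3290 of all 35556 probesets. The chaperone gene Hspa5 differed by -0.15 (adjusted p = 0.769), Xbp1 by -0.06 (adjusted p = 0.947), Atf4 by 0.05 (adjusted p = 0.930) and Ddit3, a marker of severe stress, by -0.03 (adjusted p = 0.972). The furthest down were Asns, an amino acid synthetase induced by Atf4, at -1.59 (adjusted p = 0.135) and Sdf2l1 at -0.89 (adjusted p = 0.0563). A second, dimmer probeset of Pdia4, a disulfide isomerase, was called at -0.46 (adjusted p = 0.0434), and its brighter one was not (-0.37, adjusted p = 0.0753). None of 13 genes of endoplasmic reticulum calcium handling passed. Outside the organelle, Hsp90aa1, the inducible cytosolic chaperone, fell at all 3 of its probesets, by 0.69, 0.66 and 0.76 (adjusted p from 0.0120 to 0.0127). These probesets may share signal, which was not tested, so they do not count as 3 separate results.

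Families of detoxifying enzymes changed at few members each. Of 67 measured cytochromes P450 of families 1 to 4, 5 rose and 5 fell, and the median was 0.01. Cyp2c38 rose by 1.16 (SE 0.24, adjusted p = 0.00792) and Cyp2d12 fell by 0.59 (SE 0.10, adjusted p = 0.000855), beside those named above. Of 16 sulfotransferases, Sult1a1 and Sult1c2 rose by 0.46 (adjusted p = 0.0189) and 0.68 (adjusted p = 0.0354) beside Sult3a1, and Sult2a8, a sulfotransferase of the steroid family, fell by 0.86 (adjusted p = 0.00273). All 5 flavin monooxygenases measured had positive differences and only Fmo2 was called, Fmo4 being at 0.62 (adjusted p = 0.0559). All 10 UDP-glucuronosyltransferases had negative differences (median -0.31) and only Ugt2b1 was called. Of 18 targets and receptors of the drug sensors CAR and PXR 2 were called, both higher, Cyp2c38 and the efflux pump gene Abcb1a (0.96, adjusted p = 0.0106). Abcb1a lies on chromosome 5 within 40 Mb of Wfs1. The classical target Cyp2b10 differed by 0.29 (adjusted p = 0.882). Of 3 major urinary protein genes with a probeset of their own, Mup21 and Mup5 (-0.71, adjusted p = 0.0347) fell.

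Single calls stood in other lists. Serpina6, the carrier of corticosteroids in blood, rose by 0.48 without overlap between the groups, from 12.89 to 13.28 in WT to 13.34 to 13.78 in KO mice (SE 0.09, adjusted p = 0.00324). The antiviral genes Oasl1 and Rsad2 fell by 0.59 (adjusted p = 0.0253) and 0.79 (adjusted p = 0.0495) of 16 interferon-stimulated genes, of which 15 had a negative difference. The call of Rsad2 was lost without any of 13 of the 16 mice. Bhmt, which moves a methyl group from betaine to homocysteine, fell by 0.56 at its brightest probeset (adjusted p = 0.0133) and had 1 of 3 probesets that did not pass (-0.26, adjusted p = 0.527). Metallothioneins, which bind zinc, did not pass despite differences of 1.41 for Mt1 (adjusted p = 0.0501) and 1.92 for Mt2 (adjusted p = 0.0813). No gene was called among 80 subunits of oxidative phosphorylation, 23 genes of DNA replication and the cell cycle, 15 immediate early genes and 9 urea cycle genes.

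**Figure D4:**
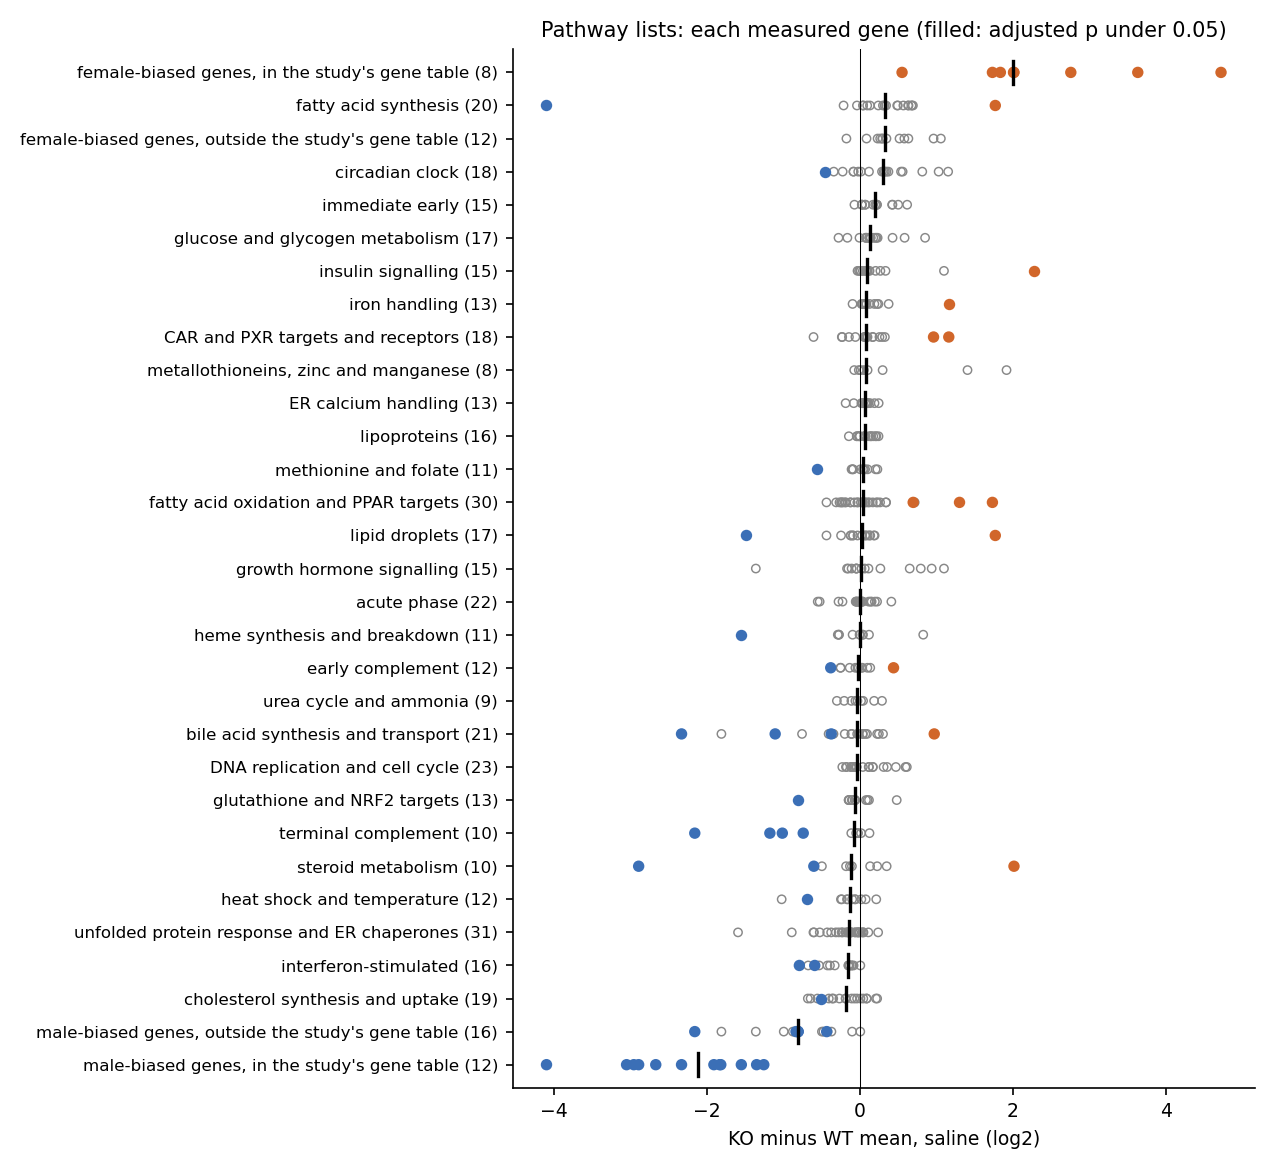
KO minus WT difference (log2) of every measured gene in the 31 pathway lists, 1 row per list with the number of measured genes in brackets, filled where the adjusted p was under 0.05 (orange higher, blue lower), with the list's median as a black bar. All 8 female-biased and all 12 male-biased genes of the study's table are filled in the first and last rows, and terminal complement shows 4 filled points at -0.74 to -2.16 beside 6 open ones near 0.

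Of 18 clock genes only Clock was called, at -0.46 (SE 0.10, adjusted p = 0.0106). Clock lies on chromosome 5 within 40 Mb of Wfs1, and it differed from WT by -0.68 in HZ mice given saline. It is also a member of the index given next. The repressors Per1 and Ciart differed by 1.03 (adjusted p = 0.210) and 1.16 (adjusted p = 0.244). An index of clock genes, the mean z-score of genes that peak with Arntl and Clock minus that of genes that peak with Dbp and Per1 (12 genes measured), was -0.35 ± 0.93 in WT and -1.26 ± 0.92 in KO mice (SD, n = 8 each). With the index as a covariate 134 probesets passed, 125 of them among the 281. Of the 30 largest rises and falls, 24 kept their call, and Cyp2a22, Cyp17a1, Rgs16, Cyp4a14, Hsd3b5 and Gm21286 lost it. Their differences with the index were 2.32 for Cyp2a22, 1.90 for Cyp17a1, 1.22 for Rgs16, 1.43 for Cyp4a14, -2.57 for Hsd3b5 and -2.29 for Gm21286. The index differs between the groups it adjusts, so these losses do not show a part of the clock, which was not tested.

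Of 102 measured marker genes in 13 lists of cell types 2 were called, against 0.993% of all 19938 genes. They were Alas2, described above, and Car3, an adipocyte marker that hepatocytes also express, at -0.29 (adjusted p = 0.0164). The adipocyte genes Adipoq and Lep differed by 0.06 and -0.06. The mean of 12 Kupffer cell markers was 8.23 to 9.39 in WT and 8.61 to 9.33 in KO mice (median difference -0.12), and that of 11 lymphocyte markers 6.26 to 6.54 and 6.19 to 6.45. Markers of pericentral hepatocytes (11 genes, median -0.03) and periportal hepatocytes (8 genes, median 0.10) gave no call. In whole liver, fewer cells of a type and less RNA per cell cannot be told apart.

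Genes on chromosome 5, which carries Wfs1, were called more often than the average. Of 1139 measured genes of the chromosome 25 were called (2.19%), against 0.997% of 19853 genes over all chromosomes, and on chromosome 19 it was 2.22%. Within 40 Mb of Wfs1 17 of 393 genes were called (4.33%), within 20 Mb 8 of 260 (3.08%), and beyond 40 Mb 8 of 746 (1.07%). Those within 20 Mb were Abhd1, Khk, Pisd, which makes phosphatidylethanolamine in mitochondria, and Ppargc1a, which rose, and Gsap, Atraid, Supt7l and Spon2, an extracellular matrix protein gene, which fell. Pisd rose by 0.25 (adjusted p = 0.0164), Spon2 fell by 0.78 (adjusted p = 0.00186), Atraid by 0.29 (adjusted p = 0.00108), Gsap by 0.46 (adjusted p = 0.0249) and Supt7l by 0.45 (adjusted p = 0.0374). Sequence that stays linked to a mutated gene can differ between a mutant and its wild type, and its part in these differences was not tested.

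HZ mice given saline share their WT mice with the comparison above, so their values are set beside it without a test of likeness. Abhd1 was 1.65 above WT in HZ mice (SE 0.16, adjusted p = 7.07e-09) and 2.26 above in KO mice, and the KO mean exceeded the HZ mean by 0.61 (adjusted p = 0.0351). Spon2 was -0.64 from WT in HZ mice (adjusted p = 0.0255) and -0.78 in KO mice, and Clock was -0.68 in HZ mice (adjusted p = 0.000193) and -0.46 in KO mice. Of the 8 genes within 20 Mb of Wfs1 named above Abhd1 and Spon2 were called in HZ against WT mice, where 5 of all 260 genes in that window were called, Atraid being at 0.01 (adjusted p = 0.934) and Khk at 0.15 (adjusted p = 0.501). Of the 30 largest rises and falls only Abhd1 was called in HZ against WT mice, where 108 probesets passed over the array (0.304%), 44 higher (0.124%) and 64 lower (0.18%), and 25 were called in KO against HZ mice, where 496 passed (1.39%), 250 higher (0.703%) and 246 lower (0.692%). In HZ mice the mean of Sult3a1 was 3.57, that of Lepr 6.30 and that of Elovl3 10.22.

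**Figure D5:**
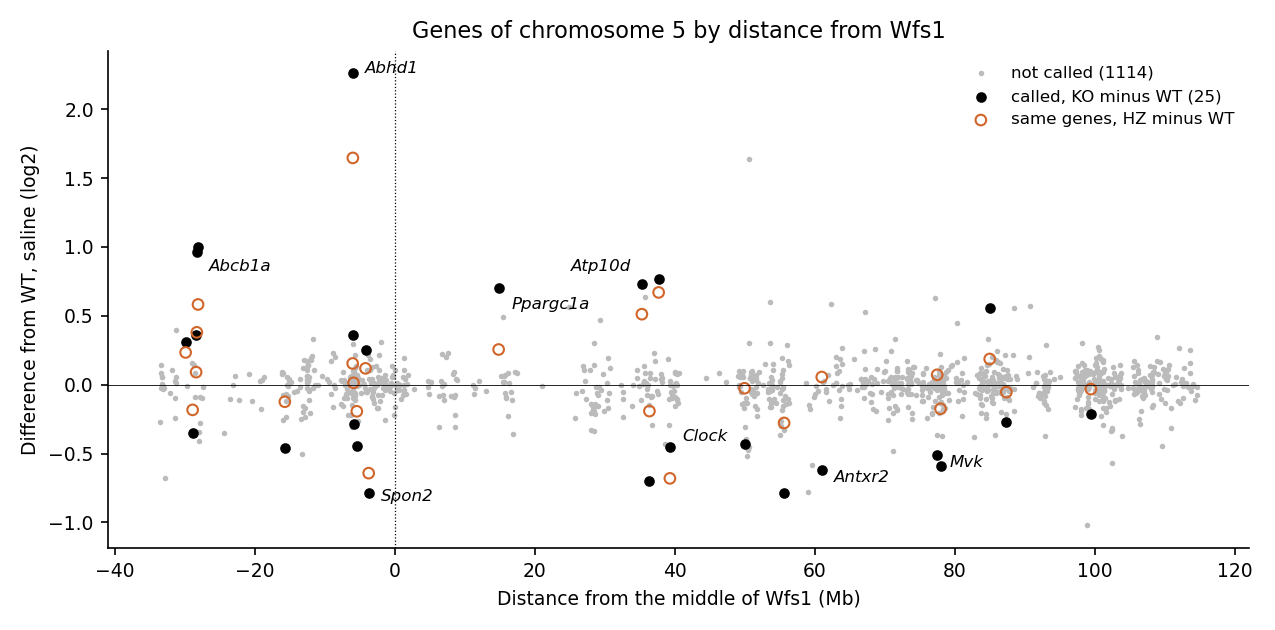
Difference from WT in saline (log2, vertical) of 1139 genes of chromosome 5 by their distance from the middle of Wfs1 (Mb, horizontal), with the 25 called in KO against WT mice in black, the others in grey, and the HZ minus WT difference of the same 25 as open orange circles. Abhd1, about 6 Mb from Wfs1, is the highest in both genotypes at 2.26 and 1.65.

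KO and WT mice given VPA are other mice than those above, and in them 144 probesets were called (0.405%), 68 higher (0.191%) and 76 lower (0.214%). Of the 281 probesets called in saline, 268 had the same sign in VPA mice and 58 were also called, but the fit shares 1 estimate of the spread, and with separate fits of 16 arrays for each treatment 8 were called in both. With the clock index as a covariate 1 was called in both, but in VPA mice the index itself lay far apart by genotype, with a mean of 2.24 (SD 0.54) for the 8 WT and of -0.24 (SD 0.95) for the 8 KO animals. The difference was smaller in VPA than in saline mice at 250 of the 281, with a median ratio of 0.62, but the 281 had been chosen for passing in saline. All 30 of the largest rises and falls kept their sign, and 14 were called in VPA mice. Among them Sult3a1 differed by 3.66 (adjusted p = 0.0675), Cyp2b13 by 3.42 (adjusted p = 0.0465), Elovl3 by -3.20 (adjusted p = 0.00224), C6 by -1.69 (adjusted p = 0.00444) and Abhd1 by 2.11 (adjusted p = 1.41e-12). Cyp4a12a, at -1.27 (adjusted p = 0.705), and Pnpla3, at 0.45 (adjusted p = 0.930), did not pass in VPA mice. The difference between the saline and VPA comparisons was itself tested and passed at 0 probesets in limma, with 974 at an unadjusted p under 0.05, and 2 at an unadjusted p under 0.001 with more than 2-fold change.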

How the data were processed

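Total liver RNA (300 ng per mouse, RIN 7 to 9) was hybridized to Affymetrix Mouse Gene 1.0 ST arrays. The authors deposited log2 values summarized with RMA (Expression Console, version 1.1.2800.28061). RMA corrects background, gives all arrays the same distribution and combines the probes of each of 35556 probesets, so a shift shared by most genes would not be seen. No array was left out, no value was changed, and 0 columns belonged to other samples. The number of arrays limits the precision. Groups were taken from the labels, which describe 8 separate animals per group.

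A mean per group was estimated by limma (version 3.58.1, R 4.3.3) over all 48 arrays (42 residual degrees of freedom), the samples that the study's analysis of variance used, with eBayes moderation and Benjamini-Hochberg adjustment. The fit was tested on simulated data with normal noise and the same spread in every group. That setting cannot test the effect of the wider spread of the called probesets in KO mice. Probesets were joined to symbols through the platform's annotation and RefSeq, and 21789 carried 1 symbol. A gene was represented in a list by the probeset with the highest mean. Genes named were Wfs1, those the study measured by qRT-PCR, the 15 largest rises and falls called with 1 symbol, called list members with other list members given by value, and called genes within 20 Mb of Wfs1. Of the genes called in the 16-array fit, those outside this rule, and second probesets, were named after their values were seen, as was the note on sex-linked genes. Some genes are not reported here. The members, lists and rules were chosen with earlier results of these data known. Lists were counted, not tested: 31 of pathways (460 distinct genes measured), 13 of cell types (102) and 9 of families (236), where a gene may stand in several lists.

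The alternatives were the 16 or the 24 saline arrays alone, array weights, a trend with robust moderation, no moderation, median centring, filters on probesets, other thresholds, the clock index, the replicate number as a block, each mouse left out and means of unlogged values. Replicate numbers were not taken as pairs, since the labels tie no number to a litter, batch or day and not every same-numbered pair of WT and KO residuals correlated by over 0.1 (5 of 8 did). The permutation test used scipy 1.17.1 and the plots matplotlib 3.10.9, under Python 3.11.15.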

Additional observations from a re-analysis of the deposited data

Results flagged for a closer look

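In 11 of the 146 groups of 8 mice examined (the WT and KO saline groups of each named gene) 1 mouse stood apart from the others by more than Dixon's 95% limit, where chance flags about 1 in 20 groups. In WT mice, replicate 4 was the highest for Slc22a26 at 8.54 (next 6.95), for Acot3 at 9.02 (next 8.00), for Mbl1 at 11.96 (next 11.67) and for Sult1a1 at 10.70 (next 10.38), and the lowest for Khk at 11.22 (next 11.43). WT replicate 6 was the lowest for Hao2 at 4.54 (next 4.99) and for Cyp2c38 at 9.24 (next 10.36). WT replicate 1 was the highest for Pnpla3 at 8.87 (next 7.94), WT replicate 2 the lowest for Nat8f5 at 7.82 (next 8.92) and WT replicate 8 the highest for Mup5 at 7.87 (next 7.52). In KO mice the only such value was that of Cux2 in replicate 4, at 8.89 (next 7.91). Without the mouse that stood apart the call was lost for 4 of the 11, Cux2, Khk, Mbl1 and Mup5. The wide range of the KO mice in Sult3a1, Elovl3 and most sex-biased genes gave no such value, because their levels were spread over the range.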

How the results depend on the processing

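The count of 281 (104 higher, 177 lower) became 19 (5 and 14) with only the 16 arrays, 147 (51 and 96) with the 24 saline arrays, 169 (54 and 115) with array weights, 85 (30 and 55) at an adjusted p under 0.01, 66 (26 and 40) at the study's thresholds for genotype (an unadjusted p under 0.001 and over 2-fold) and 134 (47 and 87) with the clock index. In the same order without array weights, the 61 calls in the lists became 13, 38, 28, 33 and 39. The 58 probesets also called in VPA mice became 8 with separate 16-array fits, 20 at an adjusted p under 0.01, 27 at those thresholds and 1 with the clock index, and the 0 that differed between treatments became 2 at an unadjusted p under 0.001 and over 2-fold. Leaving out each mouse gave counts of 102 to 476 (36 to 188 higher, 66 to 288 lower), 32 to 91 calls in lists, 40 to 89 shared with VPA mice and 0 for the difference between treatments. The lower calls fell to 102 without WT replicate 2 and to 110 without WT replicate 6. Trend and robust moderation, no moderation, median centring and the filters on probesets left each of these counts within 1.5 times its value.

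Of the 71 called named genes, none changed sign in any alternative, 15 kept their call with 16 arrays, 45 with 24, 50 with array weights, 47 with the clock index and 35 without each mouse in turn. List members whose call was often lost in this way included Rsad2 (without any of 13 of the 16 mice) and Amacr (without any of 11). Keg1, Mvk, Sult1c2 and Slc22a29 each lost it without any of 10 mice, Mbl1 without any of 7 and Mbl2 without any of 6. With the replicate number as a block 339 probesets passed (129 higher, 210 lower), 67 in the lists, and 70 of the 71 named calls were kept, all but that of Slc22a7 (adjusted p = 0.0520). Same-numbered WT and KO residuals correlated by 0.109 on average (-0.128 to 0.494), while pairs of unlike number averaged -0.016, and only 4 of the 16 mice correlated best with the mouse of their own number. The block in the 16-array fit, added after seeing the data, left 3 probesets (3 higher, 0 lower) and 1 in the lists. The cause of these changes was not tested. Folds from unlogged means kept the direction of all 73 named genes and moved by less than the KO spread in 72.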
